A study of Caenorhabditis elegans with 48 samples.

Results

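Adult *Caenorhabditis elegans* of the strain JDW259 were sampled over a single day, and the mock worms of the late part of that day were compared with those of its early part. The comparison used 16 of the 48 libraries of the series. These were 8 late libraries (circadian time CT17, CT19, CT21 and CT23) and 8 early libraries (CT1, CT3, CT5 and CT7), chosen by sampling time alone, with 2 culture plates for each time point. The question was which genes differ steadily between both ends of the sampling day, in worms that were not given the auxin analog K-NAA.

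JDW259 carries TIR1, the plant F-box protein that recognizes auxin, under the promoter of *eft-3*, which is active in most somatic cells. It also carries *nhr-23*, the nuclear receptor related to mammalian ROR, fused at its own locus to an auxin-inducible degron and a FLAG tag. Both alleles were present in all groups used here, mock worms included, so neither group is wild type. The worms were entrained by temperature cycles, treated with FUdR (a drug that stops the production of offspring), moved to fresh plates and then sampled every 2 h at constant temperature. The K-NAA worms, of the same strain, age and times, were moved to plates with K-NAA, which triggers degradation of the tagged NHR-23. Late worms were older than early worms, and by the Methods had also been longer on their last plate. The temperature cycles alternated a warm and a cold phase, and sampling took place at the cold temperature. Late worms were therefore also further in time from the last warm phase. Age, time on the plate, time since the last warm phase and time of day cannot be told apart, since only 1 day was sampled. A gene with a daily rhythm could also differ between these windows.

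A young adult hermaphrodite spends much of its RNA on reproduction. The intestine makes vitellogenins, the yolk proteins that are taken up by oocytes, and the hypodermis makes the collagens of the cuticle. The small heat shock proteins of the HSP-16 family hold unfolded proteins after stress. The FOXO factor DAF-16, which is restrained by insulin-like signaling, drives genes for catalases, superoxide dismutases, metallothionein and lysozymes. Mitochondrial, glycolytic and lipid genes set how stored and eaten fuel is used.

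Each value is in TPM (a length-scaled share of the transcripts of a library). All libraries sum to the same total, and the depth behind them is unknown. Plates taken at the same time correlated on the log2 scale at 0.980 to 0.987. From 15367 to 15932 genes were above 0 TPM in the early libraries and from 15165 to 15712 in the late ones. This number did not differ detectably (exact two-sided permutation test over the 16 libraries, p = 0.534, Benjamini-Hochberg p = 0.651 over 3 measures). The 10 highest genes held 7.14 to 7.82% of the TPM early and 6.88 to 8.25% late (exact permutation p = 0.61, adjusted 0.651). The median ratio of each library to all, the third measure, ran from 0.965 to 1.06 early and from 0.925 to 1.11 late (exact permutation p = 0.651, adjusted 0.651). Markers of the intestine, hypodermis, muscle, oocytes and sperm were detected.

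Genes called higher in late worms included genes of stress resistance, sugar and lipid use and immunity, and genes called lower included small heat shock, cuticle collagen, yolk and muscle genes. Differences are given as late minus early log2(TPM + 0.5), which understates the change of low genes, with limma's moderated test and Benjamini-Hochberg adjustment over 13813 genes. At an adjusted p under 0.05, 340 genes were higher (2.46% of the genes tested) and 204 were lower (1.48%). Most changes were small, with a median log2 difference of 0.27 among the genes called higher and -0.44 among those called lower, and 17 of the 544 changed by 2-fold or more. The 51 gene lists read below held 140 of the 544, so the themes named above do not describe most of the calls. At an unadjusted p under 0.05 there were 2626 genes. The 8 late libraries all lay above the 8 early ones for 67 genes (0.485% of those tested) and all below them for 50 (0.362%). Of the calls, 62.5% were higher. After rescaling by the median ratio of 12566 genes the counts were 281 higher and 274 lower (50.6% higher), so the balance of directions depended on the scaling.

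These counts leaned on single libraries. Without CT1 replicate 2 there were 180 higher and 112 lower genes, without CT19 replicate 2 there were 217 higher, and without CT23 replicate 1 there were 123 lower. Leaving out both plates of a time point gave 101 higher and 56 lower (CT1), 152 and 92 (CT3), 152 and 90 (CT5), 200 and 170 (CT19), 183 and 104 (CT21) or 142 and 80 (CT23). With replicate 2 alone, limma called 7 higher and 5 lower, and with replicate 1 alone 0 (1656 genes at an unadjusted p under 0.05). The 544 genes had the same sign in both replicates taken alone, as did 8282 of all 13813 genes. The 544 were called on these same libraries, which by itself makes a shared sign likely.

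**Figure D1:**
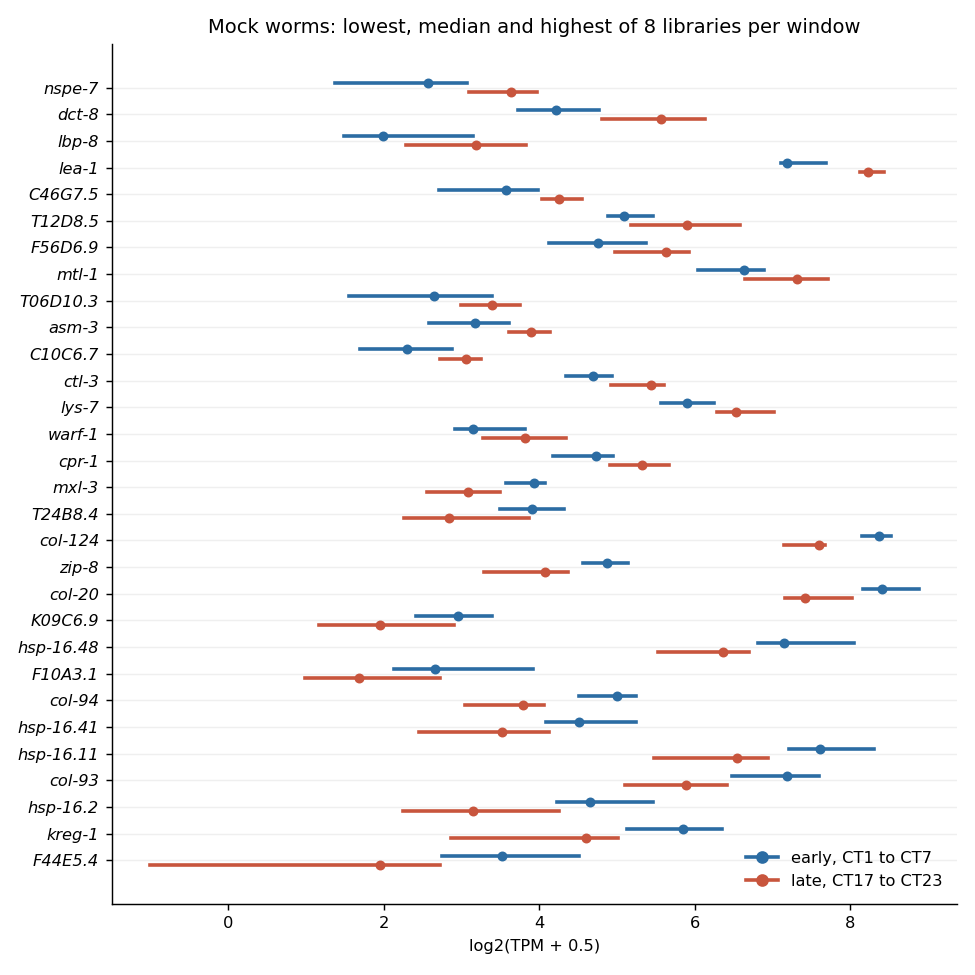
Lowest, median and highest log2(TPM + 0.5) of the 8 early (blue) and 8 late (red) mock libraries, for the 15 highest and 15 lowest differences among genes called at an adjusted p under 0.05. Bars span the lowest to the highest library and points are medians; *lea-1* and *col-93* show windows that do not overlap, whereas those of *lbp-8* and *hsp-16.2* do.

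The rise with the smallest p was that of *lea-1*, which encodes a protein of the late embryogenesis abundant family that protects against drying (chromosome V, 10011923 to 10028168, plus strand in WBcel235). Its RNA stood at 138 to 206 TPM early (median 145) and 279 to 346 TPM late (median 299). The lowest late library was above the highest early one, and the difference was 0.99 ± 0.073 (SE, adjusted p = 1.6e-06). *dct-8*, a gene found downstream of DAF-16 (chromosome IV, 3895070 to 3895506, plus strand), had 12.7 to 26.8 TPM early (median 18.1) and 27.4 to 69.6 TPM late (median 46.9). Its windows did not overlap either, with a difference of 1.202 ± 0.18 (SE, adjusted p = 0.0017). *nspe-7*, of a nematode-specific peptide family whose role is not known, had 2.11 to 7.88 TPM early (median 5.44) and 8.05 to 15.2 TPM late (median 12.01), again without overlap, and differed by 1.29 ± 0.23 (SE, adjusted p = 0.0053).

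Other stress resistance genes also rose. Of 36 listed genes of DAF-16 and oxidative stress, 7 rose (19.4%, beside 2.46% of all genes) and 0 fell. Among these 7 is *lea-1*, given above. The list median of the log2 difference was 0.12, against 0.0042 over all genes. *mtl-1*, a metallothionein, had 65.2 to 118.8 TPM early (median 98.9) and 99.4 to 210.5 TPM late (median 159), and its windows overlapped (difference 0.79 ± 0.15 SE, adjusted p = 0.0076). The catalase gene *ctl-3* had 19.9 to 30.2 TPM early (median 25.4) and 29.8 to 48.3 TPM late (median 42.9), with a difference of 0.73 ± 0.10 (SE, adjusted p = 0.00089). It lies beside *ctl-1* and *ctl-2*, similar genes whose differences of 0.26 and 0.050 did not pass (adjusted p = 0.11 and 0.82), and reads may be shared among them. *lys-7*, a lysozyme, had 47 to 75.7 TPM early (median 59.5) and 77.8 to 129 TPM late (median 92.1) and did not overlap (difference 0.69 ± 0.11 SE, adjusted p = 0.0025). The remaining members that rose, named after their values were seen, were *dod-3* (0.63), *sod-5* (0.82), a superoxide dismutase at under 2 TPM, and *sip-1* (0.26), a small heat shock protein of eggs that is also on the heat shock list. The call of *sip-1* was lost without any 1 of 11 of the 16 libraries (all but CT1 replicate 2, CT7 replicate 1, CT17 replicate 1, CT19 replicate 1 and CT23 replicate 2), without CT1, CT3, CT5, CT7, CT17, CT21 or CT23 (adjusted p up to 0.13) and after median ratio rescaling (adjusted p = 0.14). The gene *daf-16* itself differed by 0.15 ± 0.067 (SE, adjusted p = 0.25), and its target *sod-3* by 0.38 ± 0.14 (SE, adjusted p = 0.15); neither passed.

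Some immune effectors rose. Of 74 genes for lysozymes, saposin-like proteins and other effectors, 6 rose (8.11%, beside 2.46% of all genes) and 0 fell. Among these 6 is *lys-7*, which is also counted on the DAF-16 list. Of 107 C-type lectins 6 rose (5.61%) and 2 fell (1.87%, beside 1.48% of all genes). The saposin-like antimicrobial gene *spp-1* had 45.5 to 65.0 TPM early (median 54.2) and 62.2 to 86.2 TPM late (median 82.9), a difference of 0.48 ± 0.085 (SE, adjusted p = 0.0051). *spp-2* had 15.2 to 23 TPM early (median 18.6) and 17.5 to 36.5 TPM late (median 30.1), a difference of 0.57 ± 0.13 (SE, adjusted p = 0.018), which lost its call without CT1, CT5 or CT19 (adjusted p up to 0.07). The count of 6 effectors became 2 without CT1, CT5 or CT19. The lectin counts were less steady and fell to 0 higher and 0 lower without CT1. The 6 higher became 2 or 3 without CT1 replicate 1, CT1 replicate 2, CT3 replicate 1, CT5 replicate 1, CT19 replicate 2, CT21 replicate 2 or CT23 replicate 2. Of 25 intestinal proteases 2 rose (8%, beside 2.46% of all genes) and 0 fell: *cpr-1*, a cathepsin B-like protease (0.66 ± 0.13 SE, adjusted p = 0.0076), and *asp-4*, a cathepsin D-like protease (0.35 ± 0.052 SE, adjusted p = 0.0017).

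Some genes of sugar use rose by small amounts. Of 21 genes of glycolysis and gluconeogenesis, 6 rose (28.6%, beside 2.46% of all genes) and 0 fell, with a list median of 0.074. *gpd-1*, which encodes glyceraldehyde-3-phosphate dehydrogenase, had 434 to 519 TPM early (median 463) and 590.3 to 684 TPM late (median 604), without overlap, and differed by 0.40 ± 0.044 (SE, adjusted p = 0.00023). Its near-identical copy *gpd-4* had 192 to 232 TPM early (median 210.1) and 253 to 319.6 TPM late (median 272) and differed by 0.41 ± 0.055 (SE, adjusted p = 0.00086), and reads of such copies may have been split between them. *ipgm-1*, the phosphoglycerate mutase, differed by 0.24 ± 0.040 (SE, adjusted p = 0.0044). The other 3, named after their values were seen, were *ldh-1* (0.24), *aldo-2* (0.18) and *enol-1* (0.16), the genes of lactate dehydrogenase, aldolase and enolase. The call of *aldo-2* was lost without any 1 of 12 of the 16 libraries and that of *ldh-1* without any 1 of 7 (adjusted p up to 0.094 and 0.064). The count of 6 became 3 without CT1, CT3, CT5, CT7 or CT21 and 3 after median ratio rescaling.

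Of 17 glycogen and trehalose genes, 3 rose (17.6%, beside 2.46% of all genes) and 1 fell (5.88%, beside 1.48%). Of the 17, 7 had positive and 10 negative differences. *gyg-2*, a glycogenin, which primes glycogen synthesis, had 525 to 597 TPM early (median 552) and 641 to 731 TPM late (median 702), without overlap (difference 0.32 ± 0.036 SE, adjusted p = 0.00023). *pygl-1*, the glycogen phosphorylase that breaks glycogen down, had 428 to 501 TPM early (median 463) and 501 to 593 TPM late (median 536), also without overlap (difference 0.22 ± 0.042 SE, adjusted p = 0.0072). The third that rose was *gsy-1*, the glycogen synthase (0.22 ± 0.052 SE, adjusted p = 0.024), not called without CT1 replicate 2 or without CT1, CT3, CT5, CT7 or CT21 (up to 0.081). After median ratio rescaling the count of 3 became 1, with adjusted p = 0.080 for *pygl-1* and 0.11 for *gsy-1*. *gyg-1*, the other glycogenin, differed by -0.26 ± 0.060 (SE, adjusted p = 0.023), a call lost without CT1 replicate 2 or without CT1, CT3, CT5, CT21 or CT23 (adjusted p up to 0.11).

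Lipid genes moved in several directions. Of 33 genes for lipases, lipid binding and lipid droplets, 3 rose (9.09%, beside 2.46% of all genes) and 2 fell (6.06%, beside 1.48%). Besides the genes below, these were *far-3* (0.65), whose call was lost without any 1 of 13 of the 16 libraries, and *dgat-2* (-0.27). The call of *dgat-2* was lost without CT1, CT5, CT21 or CT23 (adjusted p up to 0.094). *lbp-8*, a fatty acid-binding protein that carries lipid signals from the lysosome to the nucleus, had 2.32 to 8.39 TPM early (median 3.49) and 4.41 to 13.7 TPM late (median 8.61), and its difference was 1.102 ± 0.24 (SE, adjusted p = 0.018). This call was lost without CT3, CT5 or CT21 (adjusted p up to 0.064). *lips-11*, a lipase-related gene, had 76.0 to 113 TPM early (median 83.8) and 113 to 176 TPM late (median 135), without overlap (difference 0.58 ± 0.093 SE, adjusted p = 0.0026). *lbp-5*, another fatty acid-binding protein, differed by -0.35 ± 0.076 (SE, adjusted p = 0.017), not called without CT3 or CT23 (adjusted p up to 0.066). Of 21 desaturase and elongase genes 4 rose (19.05%, beside 2.46% of all genes) and 0 fell. *elo-2*, the palmitic acid elongase, had 82.3 to 119.9 TPM early (median 111) and 123 to 157 TPM late (median 138), without overlap (difference 0.38 ± 0.077 SE, adjusted p = 0.011), and *elo-6*, an elongase of branched fatty acids, differed by 0.32 ± 0.070 (SE, adjusted p = 0.016), not called without CT21 or CT23 (up to 0.054). The count of 4 became 2 without CT1 replicate 2 or without CT1, CT5 or CT21, and 1 without CT23. Of 25 genes of the tricarboxylic acid cycle and 49 nuclear genes of the respiratory chain, 0 were called in limma. At an unadjusted p under 0.05 there were 4 and 5, beside 19% of all genes. In lists of this size, 0 calls lie near the share over all genes (2.46% higher and 1.48% lower).

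Among mitochondrial genes, 11 of the 12 encoded in mitochondria had positive differences, with a median of 0.32, but only *nduo-1* (0.34 ± 0.072 SE, adjusted p = 0.014) and *nduo-4* (0.30 ± 0.072 SE, adjusted p = 0.025), subunits of complex I, passed (16.7%, beside 2.46% of all genes). The count of 2 became 1 without CT1 replicate 1, CT1 replicate 2 or CT19 replicate 2, became 4 without CT7 replicate 2 or CT23 replicate 1, became 1 without CT3, CT17 or CT19, and became 0 without CT1 or CT5. *hsp-6*, the mitochondrial HSP70, had 261 to 338 TPM early (median 301) and 332 to 362 TPM late (median 352) and differed by 0.24 ± 0.048 (SE, adjusted p = 0.01). *atfs-1*, the factor that induces it under mitochondrial stress, differed by 0.31 ± 0.074 (SE, adjusted p = 0.027), a call lost without CT1 replicate 1, CT1 replicate 2, CT3 replicate 1, CT7 replicate 1 or CT23 replicate 2 (differences of 0.27 to 0.35 over the libraries left out) and without CT1, CT3, CT19, CT21 or CT23 (adjusted p up to 0.12).

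**Figure D2:**
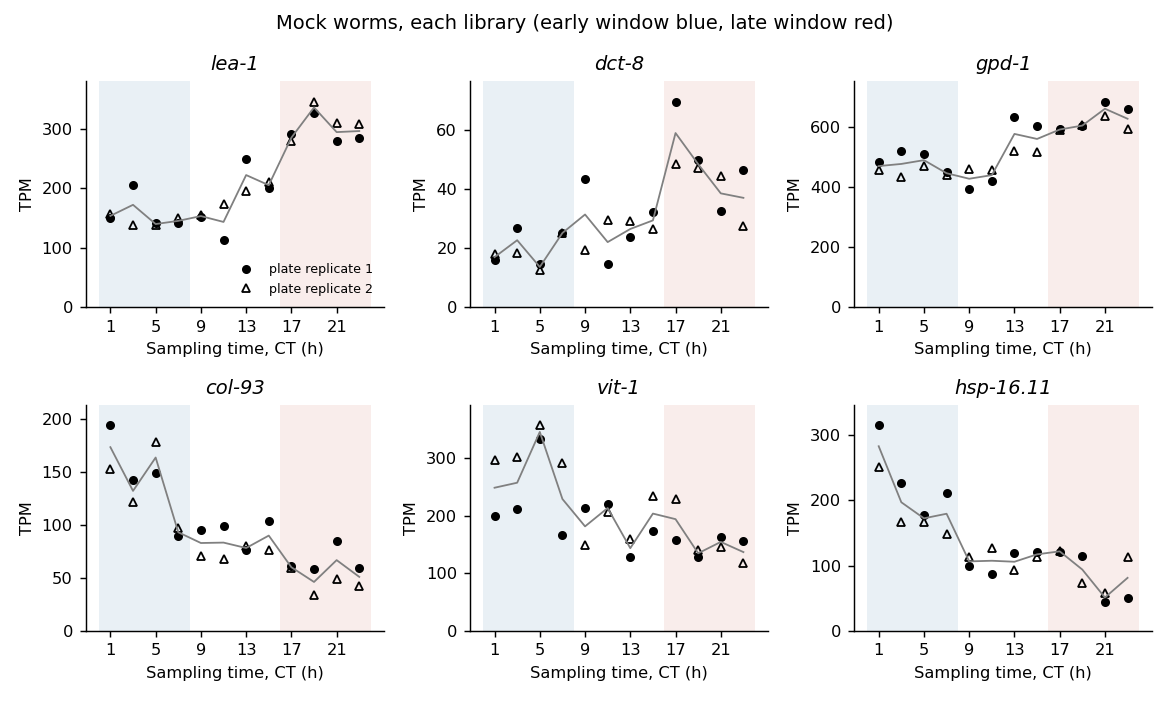
TPM against sampling time (CT, h) in each of the 24 mock libraries for 6 genes, with filled circles for plate replicate 1, open triangles for replicate 2 and a line through the mean of both. The early window is shaded blue and the late window red; *lea-1* lay at 138 to 206 TPM early and 279 to 346 TPM late, whereas *hsp-16.11* fell from 315 and 251 TPM at CT1.

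Heat shock genes were among the lowest differences. Of 26 measured genes of the heat shock response, 8 fell (30.8%, beside 1.48% of all genes) and 1 rose. The 1 that rose was *sip-1*, whose call was lost in most of the fits with a library left out. The median over the list was -0.073. *hsp-16.2* and *hsp-16.41*, which are neighbors read in opposite directions (chromosome V, 1804334 to 1804957, minus strand, and 1805178 to 1805875, plus strand), both fell. *hsp-16.2* had 18.3 to 43.6 TPM early (median 24.8) and 4.24 to 18.7 TPM late (median 8.38). *hsp-16.41* had 16.54 to 37.4 TPM early (median 22.3) and 4.99 to 16.9 TPM late (median 10.98). Their differences were -1.58 ± 0.29 (SE, adjusted p = 0.0072) and -1.25 ± 0.23 (SE, adjusted p = 0.0072), with windows that overlapped slightly. *hsp-16.11* was the most abundant, at 148 to 315 TPM early (median 194) and 43.9 to 122 TPM late (median 92.8), without overlap, and differed by -1.32 ± 0.23 (SE, adjusted p = 0.0047). *hsp-16.48* had 112 to 264 TPM early (median 142) and 45.8 to 104 TPM late (median 81.8) and differed by -1.05 ± 0.20 (SE, adjusted p = 0.0076). *hsp-16.11* and *hsp-16.48* each have a near-identical copy in the genome, so their values may hold reads of both. The inducible HSP70 genes followed: *F44E5.4* had 6.21 to 22.4 TPM early (median 10.96) and 0 to 6.13 TPM late (median 3.38), a difference of -1.88 ± 0.42 (SE, adjusted p = 0.018), and *hsp-70* differed by -0.71 ± 0.16 (SE, adjusted p = 0.021) at under 4 TPM. The call of *F44E5.4* was lost without CT1 or CT3 (adjusted p up to 0.089), and that of *hsp-70* without CT1, CT3, CT5, CT21 or CT23 (up to 0.098). *F44E5.4* shares nearly all of its sequence with *F44E5.5*, which differed by -1.21 ± 0.62 (SE, adjusted p = 0.31). The main constitutive chaperones did not follow, with *hsp-90* at 0.0051 (adjusted p = 0.98) and *hsp-1* at 0.073 (adjusted p = 0.48). The count of 8 became 5 without CT1 or without CT3. The part of the time since the last warm phase in these falls was not tested.

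Other genes outside that list also fell. *kreg-1*, a short gene (chromosome X, 8709764 to 8710015, plus strand), had 34.7 to 81.4 TPM early (median 57.4) and 6.77 to 31.8 TPM late (median 23.8), without overlap, and differed by -1.61 ± 0.31 (SE, adjusted p = 0.0081); without CT1 the adjusted p was 0.0503. *zip-8*, which encodes a bZIP factor, had 23.2 to 34.9 TPM early (median 28.7) and 9.27 to 20.2 TPM late (median 16.44), without overlap (difference -0.87 ± 0.13 SE, adjusted p = 0.002). *mxl-3*, a repressor of lysosomal lipases in fed worms, had 11.4 to 16.44 TPM early (median 14.8) and 5.397 to 10.8 TPM late (median 7.98), without overlap (difference -0.81 ± 0.12 SE, adjusted p = 0.0013).

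Cuticle collagens held the most falling genes of any list. Of 70 numbered collagen genes measured, of 156 in the table, 24 fell (34.3%, beside 1.48% of all genes) and 1 rose, with a median of -0.23. Of the 70, 13 fell without overlap between the windows, as did 0.362% of all genes. *col-93* and *col-94*, neighbors on chromosome III (10984552 to 10985609 and 10986808 to 10987873, both on the minus strand), both fell. *col-93* had 89.2 to 194 TPM early (median 146) and 33.8 to 84.7 TPM late (median 58.6). *col-94* had 22.4 to 37.5 TPM early (median 31.5) and 7.77 to 16.3 TPM late (median 13.4). Their differences were -1.32 ± 0.18 (SE, adjusted p = 0.00086) and -1.17 ± 0.14 (SE, adjusted p = 0.0006), and neither gene overlapped between windows. *col-124* had 283 to 369 TPM early (median 332) and 141 to 203 TPM late (median 194), a difference of -0.83 ± 0.083 (SE, adjusted p = 8.1e-05). *col-20* had 286 to 473 TPM early (median 339) and 143 to 259 TPM late (median 170.0), a difference of -0.96 ± 0.12 (SE, adjusted p = 0.00076). The adult collagen *col-19*, a standard marker of the adult hypodermis, had 369.6 to 476 TPM early (median 447) and 286 to 367 TPM late (median 324) and differed by -0.43 ± 0.056 (SE, adjusted p = 0.0008). The 1 collagen that rose, *col-60*, was at 0.0787 to 0.492 TPM early and 0.421 to 1.25 TPM late, and was not called without CT3 or CT21 (adjusted p up to 0.07). The collagens that shape the body behaved otherwise: 8 of 9 had positive differences, with a median of 0.45, though 0 of 9 passed in limma (6 at an unadjusted p under 0.05, beside 19% of all genes). The highest of these was *sqt-3*, whose library of CT21 replicate 1 stood apart (29.5 TPM, next 17.2 TPM). The summed TPM of the numbered collagens was 11209 to 14826 early and 7064 to 11011 late. Without CT1 the count of 24 became 12 and without CT3 it became 15.

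All 6 vitellogenins, the yolk genes, had negative differences, and 2 of them passed (33.3%, beside 1.48% of all genes called lower). *vit-1* had 167 to 357 TPM early (median 294) and 118 to 229.9 TPM late (median 151), a difference of -0.78 ± 0.16 (SE, adjusted p = 0.011). *vit-3* had 625 to 1039 TPM early (median 958) and 486 to 847 TPM late (median 626) and differed by -0.46 ± 0.12 (SE, adjusted p = 0.042), a call that was lost without any 1 of 13 of the 16 libraries (all but CT1 replicate 1, CT7 replicate 1 and CT17 replicate 2; differences of -0.53 to -0.41). The most abundant, *vit-2* and *vit-6*, differed by -0.22 ± 0.065 (SE, adjusted p = 0.072) and -0.21 ± 0.091 (SE, adjusted p = 0.22). *vit-3*, *vit-4* and *vit-5* are alike enough that reads may be shared. The call of *vit-3* was also lost without CT1, CT3, CT5, CT19, CT21 or CT23 (adjusted p up to 0.15), and the count of 2 became 4 without CT1 replicate 1.

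Some muscle genes fell by small amounts. Of 45 genes of the sarcomere, 11 fell (24.4%, beside 1.48% of all genes) and 0 rose, 40 had negative differences, and the median was -0.21. *tnt-2*, a troponin T, had 71.6 to 97.9 TPM early (median 78.3) and 56.9 to 76.0 TPM late (median 59.7), a difference of -0.38 ± 0.072 (SE, adjusted p = 0.0078), *dim-1*, which stabilizes the thin filament, differed by -0.36 ± 0.070 (SE, adjusted p = 0.0095), and *mlc-2*, a myosin light chain, by -0.21 ± 0.036 (SE, adjusted p = 0.0046). The body wall myosin *unc-54*, named after its values were seen, differed by -0.34 ± 0.081 (SE, adjusted p = 0.027), a call lost without CT1 replicate 1, CT3 replicate 1, CT23 replicate 1 or CT23 replicate 2 and without CT1, CT5, CT7, CT21 or CT23 (adjusted p up to 0.11). The count of 11 became 6 without CT3 replicate 1, CT23 replicate 1 or CT23 replicate 2, became 4 without CT1, CT3, CT5 or CT23, became 5 without CT21 and 7 without CT7.

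Markers of several other tissues leaned lower. Pharynx markers (12 of 14 negative, median -0.11) and synaptic genes (22 of 28 negative, median -0.11) did so about as much as intestine markers (15 of 18 negative, median -0.12). No pharynx marker was called. Of the synaptic genes 1 was called lower and 1 higher (3.57% each, beside 1.48% and 2.46% of all genes). These calls, of *mec-12* (lower) and *tdc-1* (higher), were both lost without CT1 replicate 2. That of *mec-12* was also lost without any 1 of the 8 time points (adjusted p up to 0.10). Hypodermis markers had 11 of 15 negative (median -0.24), and the gonad sheath and spermatheca list 9 of 15 (median -0.014). Of 18 intestine markers 3 fell (16.7%, beside 1.48% of all genes) and 0 rose. The 3 that fell were parts of the brush border and its support: *act-5*, the actin of the microvilli (-0.42 ± 0.051 SE, adjusted p = 0.0006), and the intermediate filament genes *ifb-2* (-0.45 ± 0.085 SE, adjusted p = 0.0079) and *ifc-2* (-0.34 ± 0.069 SE, adjusted p = 0.012). The level of *act-5* was 228 to 290.3 TPM early (median 272) and 181 to 223 TPM late (median 198). *elt-2*, the intestinal GATA factor, differed by -0.19 ± 0.083 (SE, adjusted p = 0.21). Of 15 hypodermis markers 2 fell (13.3%, beside 1.48% of all genes), *col-19* and *grd-3*, a hedgehog-related gene. *grd-3* had 28.8 to 43.03 TPM early (median 34.6) and 15.6 to 23.4 TPM late (median 21.2), a difference of -0.78 ± 0.10 (SE, adjusted p = 0.0008). The summed TPM was 1034 to 1289.9 early and 953 to 1139 late for the intestine markers, 589 to 704 and 489 to 594 for the hypodermis markers, and 5905 to 6731 and 5570.0 to 6640.3 for the sarcomere genes. In whole worms, fewer cells of a type and less RNA per cell cannot be told apart. The part of tissue makeup in the collagen, yolk and muscle results was not tested.

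Of 32 oocyte and eggshell genes 26 had positive differences and 2 rose (6.25%, beside 2.46% of all genes), *cpg-3*, an eggshell proteoglycan (0.20 ± 0.043 SE, adjusted p = 0.018), and *egg-3*, a regulator of egg activation (0.16 ± 0.039 SE, adjusted p = 0.025). These calls were not steady, since the count became 5 without CT17 replicate 1, 6 without CT17, 1 without CT1 replicate 2 or without CT1, CT3, CT7, CT19, CT21 or CT23, 0 without CT5 and 1 after median ratio rescaling. *dsb-1*, needed for meiotic double-strand breaks, had 47.01 to 55.1 TPM early (median 51.3) and 58.9 to 74.5 TPM late (median 67.8), without overlap (difference 0.39 ± 0.053 SE, adjusted p = 0.00089). The sperm list showed 4 of 101 genes higher (3.96%, near the 2.46% of all genes) and 0 lower (beside 1.48%). These 4 were *nspe-7*, *nspg-6*, *nspg-8* and *nspg-12*, peptide genes whose role is not known here. Of the 101, 70 had negative differences, and the list median was -0.19. The count of 4 became 2 without CT1 replicate 2, CT3 replicate 1, CT5 replicate 1 or CT21 replicate 2 or without CT5, CT19 or CT21, and 1 without CT1 or CT23. The summed TPM of the sperm list was 2548 to 3969 early and 2319 to 3379.7 late.

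Of 36 translation factor and ribosome biogenesis genes 5 rose (13.9%, beside 2.46% of all genes), among them *eif-3.E*, a subunit of initiation factor eIF3, which had 100.2 to 123 TPM early (median 109.6) and 124 to 140.1 TPM late (median 134), without overlap (difference 0.26 ± 0.044 SE, adjusted p = 0.0045). That count became 2 without CT1 replicate 2 or without CT1 or CT3, 3 without CT3 replicate 2 or without CT7 or CT21, 1 without CT5 or CT23 and 1 after median ratio rescaling. The list as a whole did not shift: 18 genes had positive and 18 negative differences, with a median of 0.0062, against 0.0042 over all genes. Of 79 cytosolic ribosomal protein genes 1 fell (1.27%, beside 1.48% of all genes), *rps-15* (-0.17 ± 0.043 SE, adjusted p = 0.031), a call lost without CT1 replicate 1, CT1 replicate 2, CT7 replicate 1, CT19 replicate 2, CT21 replicate 1, CT21 replicate 2, CT23 replicate 1 or CT23 replicate 2 (differences of -0.20 to -0.16), without any time point but CT17, and after median ratio rescaling (adjusted p = 0.17). Of the proteasome, autophagy and endoplasmic reticulum stress lists, with 33, 44 and 25 genes, 0 passed in limma. At an unadjusted p under 0.05 there were 3, 5 and 3, beside 19% of all genes. For lists of this size, 0 calls again lie near the share over all genes. *tyms-1*, which encodes thymidylate synthase, the enzyme blocked by the active form of FUdR, had 103 to 114.2 TPM early (median 105) and 116 to 146 TPM late (median 131), without overlap (difference 0.31 ± 0.046 SE, adjusted p = 0.0016), and *upp-1*, uridine phosphorylase, had 98.5 to 121 TPM early (median 107) and 118 to 149 TPM late (median 123), a difference of 0.23 ± 0.051 (SE, adjusted p = 0.02), not called without CT1, CT5 or CT23 (adjusted p up to 0.093).

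**Figure D3:**
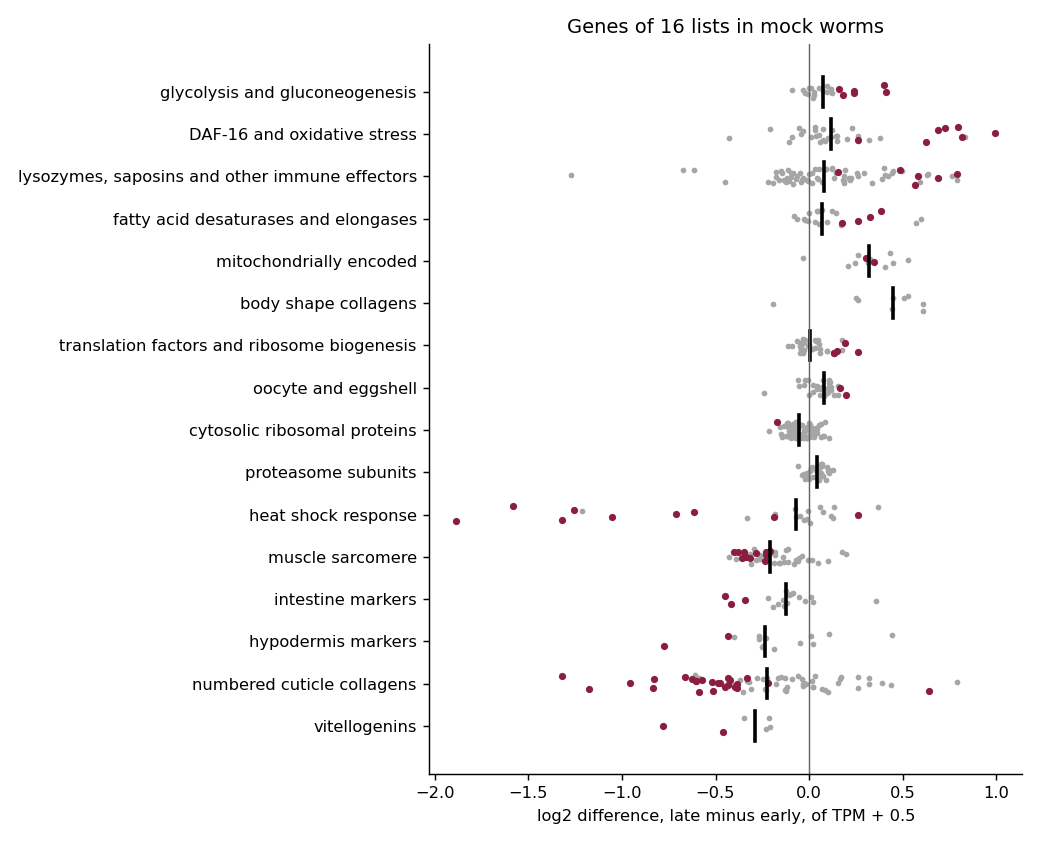
Log2 difference, late minus early, of every measured gene of 16 lists, with called genes (adjusted p under 0.05) in dark red, others in grey and the list median as a black bar. Collagens and sarcomere genes lie mostly left of 0 (24 and 11 called lower), whereas 7 genes of DAF-16 and oxidative stress are called higher.

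Of 8 homologs of clock genes 0 passed in limma (2 at an unadjusted p under 0.05, beside 19% of all genes). *nhr-23* had 31.9 to 37.4 TPM early (median 33.3) and 26.5 to 40.5 TPM late (median 34.4), a difference of -0.011 ± 0.076 (SE, adjusted p = 0.96), *lin-42*, the homolog of Period, had 1.53 to 3.47 TPM early (median 2.19) and 1.96 to 3.19 TPM late (median 2.16), a difference of 0.055 ± 0.14 (SE, adjusted p = 0.88), and *tim-1*, related to Timeless, differed by 0.0032 ± 0.097 (SE, adjusted p = 1). The casein kinase homolog *kin-20* differed by 0.016 ± 0.057 (SE, adjusted p = 0.92), *nhr-85*, related to REV-ERB, by 0.13 ± 0.13 (SE, adjusted p = 0.65), *aha-1* by 0.13 ± 0.077 (SE, adjusted p = 0.38), *atf-2* by 0.29 ± 0.12 (SE, adjusted p = 0.2) and *ces-2* by 0.51 ± 0.18 (SE, adjusted p = 0.13). Of the 9 genes of cluster ii, a set of molting and body shape genes picked by the study for an earlier rhythm, 8 had positive differences with a median of 0.35, and 0 passed in limma (4 at an unadjusted p under 0.05, beside 19% of all genes). The largest were *sqt-3* (0.61 ± 0.24 SE, adjusted p = 0.16) and *dpy-2* (0.51 ± 0.16 SE, adjusted p = 0.078). The level of *sqt-3* was 4.87 to 12.9 TPM early (median 9.28) and 8.84 to 29.5 TPM late (median 11.7). In both genes the library of CT21 replicate 1 was the highest. Since *sqt-3* is also among the body shape collagens above, these lists overlap and are not separate results.

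The libraries between the windows showed how the change ran. The mean of the 8 middle libraries (CT9 to CT15), which the test did not use, lay between the early and late means for 326 of the 340 genes called higher (95.9%) and 196 of the 204 called lower (96.1%), against 46.8% of all genes. A wide gap between the windows by itself makes an intermediate mean more likely. The middle mean stood at a median of 0.45 and 0.46 of the way from early to late. Between genes the course differed. *lea-1* had gone 0.22 of the way by the middle window and *gpd-1* 0.19, whereas *hsp-16.11* had gone 0.68, *kreg-1* 0.82 and *lys-7* 0.78. Within the windows, a common slope over the 6 h of each had the sign of the window difference for 258 of the genes called higher (75.9%) and 176 of those called lower (86.3%), against 61.4% of all genes. No slope passed by itself in limma (0 genes, lowest adjusted p = 0.795, 838 genes or 6.07% at an unadjusted p under 0.05). The smallest slope p-values belonged to *ZK546.4* (-0.21 log2 per h), *Y110A7A.21* (-0.099), *inx-5* (-0.059), *asah-1* (0.067) and *nspc-18* (-0.13), and only *asah-1*, an acid ceramidase gene, was also called between the windows (0.59 ± 0.099 SE, adjusted p = 0.0044).

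**Figure D4:**
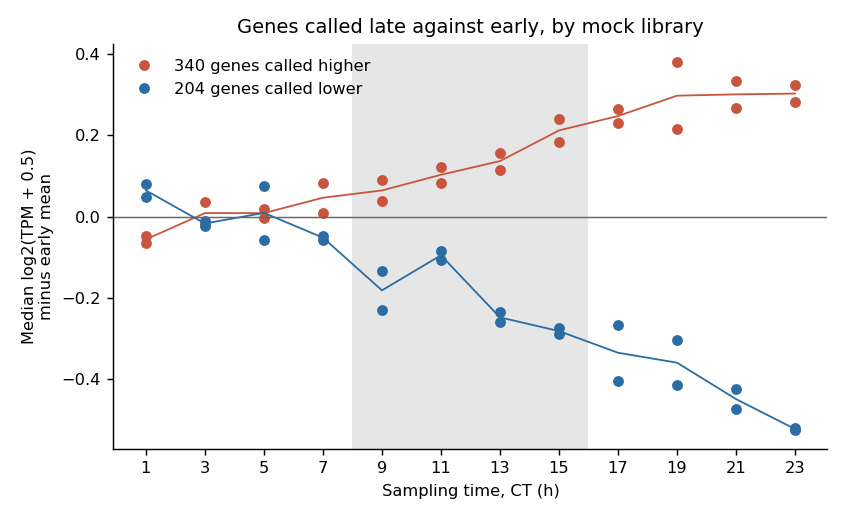
Median over the called genes of log2(TPM + 0.5) minus the gene's early mean, for each mock library against sampling time (CT, h), with a line through the mean of both plates. The 340 genes called higher (red) and 204 called lower (blue) were chosen on the white windows, and the grey middle window, where their medians lie between 0.038 and 0.24 and between -0.29 and -0.084, was not used to choose them.

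The same contrast was read in the 16 K-NAA libraries of these windows, which are separate plates. There 24 genes were higher (0.174%) and 28 lower (0.203%), with 1607 genes at an unadjusted p under 0.05. Of the 340 genes called higher in mock, 288 (84.7%) had the same sign in K-NAA and 9 were called there, and of the 204 called lower, 173 (84.8%) and 19, against a same sign for 62.9% of all genes. The median difference of these genes was 0.098 and -0.14 in K-NAA, beside 0.27 and -0.44 in mock, where they were chosen. Numbered collagens fell in both, with 13 of 70 called lower in K-NAA and 24 in mock. Their list medians were -0.18 and -0.23. *col-93* differed by -1.07 there and by -1.32 in mock, *col-20* by -0.72 and -0.96, *lys-7* by 0.66 and 0.69, and *mtl-1* by 1.26 and 0.79. For *lea-1* the values were 0.40 in K-NAA and 0.99 in mock, and the difference between conditions did not pass (adjusted p = 0.18).

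The change of 2 heat shock genes differed between the conditions. *hsp-16.11* averaged 16.37 ± 4.43 TPM (SD, n = 8) early and 18.1 ± 3.16 TPM late in K-NAA worms, and its highest library there was below the lowest of the 16 mock libraries. Its change differed between the conditions by 1.49 ± 0.29 (SE, K-NAA minus mock, adjusted p = 0.043). In all, 5 genes passed this test of the difference (0.0362% of those tested, 1040 at an unadjusted p under 0.05). The others were *hsp-70* (1.003, adjusted p = 0.038), *M02H5.8* (0.85, adjusted p = 0.028), *M163.1* (0.47, adjusted p = 0.038) and *tyms-1* (-0.31, adjusted p = 0.038). *hsp-70* averaged under 1 TPM over the 48 libraries, and its value moved with the pseudocount (1.59 with 0.1 and 0.74 with 1). *M02H5.8*, whose role is not known here, had 181 to 266 TPM early (median 197) and 94.2 to 176 TPM late (median 139) in mock worms, and averaged 82.3 ± 7.92 TPM (SD, n = 8) early and 99.4 ± 18.9 TPM late in K-NAA. *tyms-1* averaged 105 ± 6.93 TPM (SD, n = 8) early and 104 ± 4.103 TPM late in K-NAA. *hsp-16.2*, *hsp-16.48* and *kreg-1* differed by 1.66, 1.22 and 1.59 between the conditions but did not pass (adjusted p = 0.22, 0.17 and 0.28). These calls depended on the settings. That of *tyms-1* was lost after median ratio rescaling (adjusted p = 0.14), that of *hsp-70* after quantile normalization (0.073), that of *hsp-16.11* with no filter (0.078), and those of *tyms-1*, *hsp-16.11* and *M163.1* with no mean-variance trend (0.088, 0.088 and 0.060). With either replicate alone, 0 genes passed (limma, 879 with replicate 2 alone and 896 with replicate 1 alone at an unadjusted p under 0.05).

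**Figure D5:**
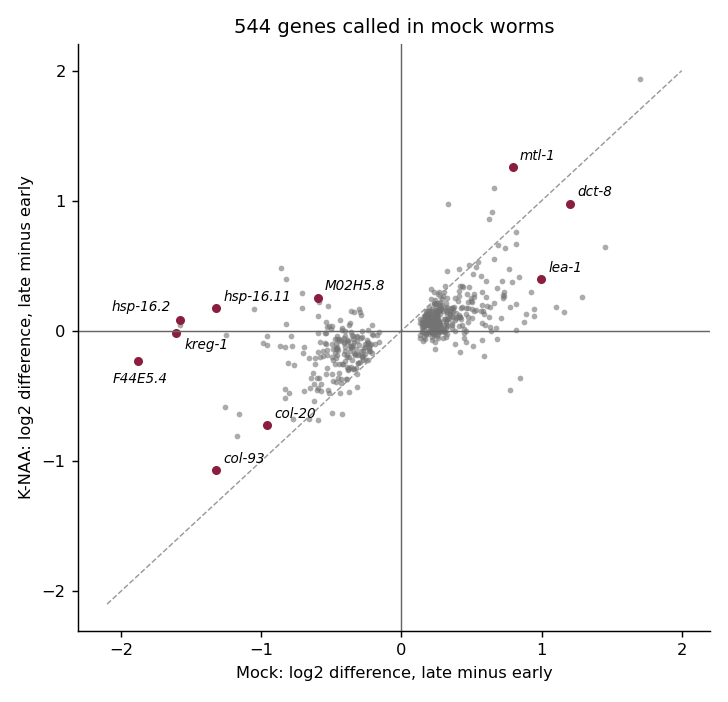
Log2 difference, late minus early, in K-NAA (vertical) against mock worms (horizontal) for the 544 genes called in mock, with equality as a dashed line. The collagen *col-93* (-1.32 and -1.07) lies near the line, whereas *hsp-16.11* (-1.32 and 0.17) lies at about 0 in K-NAA. The genes were chosen on their mock values.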

How the data were processed

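Whole adult worms were sequenced as polyA RNA, with 1 library per culture plate; the Methods treat plates as independent replicates. The authors quantified reads with Salmon against WormBase mRNA sequences (WS284; the submitters' notes list ce10) and deposited 1 TPM value per library for each of 19885 genes; the step from transcripts to genes is not stated in the sources used here. Depth is unknown, so no counting error is given. Rhythm statistics of the authors were not used. In the table, 11 gene names had been turned into dates and stayed unnamed.

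The 13813 genes that averaged 0.25 TPM or more over 48 libraries were tested on log2(TPM + 0.5) with limma 3.58.1 (R 4.3.3, mean-variance trend), with Benjamini-Hochberg adjustment. Library measures were compared by exact permutation (SciPy 1.17.1). The fits were tested on simulated data. The 51 gene lists, the windows and the tests were chosen with earlier results of these data known. The text names the 15 highest and 15 lowest called genes of at least 5 TPM with the same sign in both replicates, up to 3 called genes per list of at least 1 TPM, all clock homologs and cluster ii genes, and the 5 smallest p-values of the slope and of the difference between conditions at 1 TPM or more, or a choice from these. Positions are from the Ensembl annotation of WBcel235, which held 19523 of the names. Alternatives varied the pseudocount, filter, scaling, replicate block, variance prior, windows and libraries. A planned search for promoter motifs was not run.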

Additional observations from a re-analysis of the deposited data

Results flagged for a closer look

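In 18 of 250 groups of 8 libraries examined (7.2%), 1 library stood far from the other 7, where chance gives about 1 in 20. Libraries that stood high were *F10A3.1* at 6.12 TPM in the late library of CT19 replicate 1 (next 3.50 TPM), *F44E5.4* at 22.4 TPM in the early library of CT1 replicate 1 (next 12.5 TPM), *M02H5.8* at 266 TPM in the early library of CT1 replicate 2 (next 212 TPM), *dpy-2* at 3.45 TPM in the late library of CT21 replicate 1 (next 1.90 TPM) and *gst-22* at 19.2 TPM in the early library of CT7 replicate 2 (next 16.7 TPM). Further high values were *hsp-16.41* at 37.4 TPM in the early library of CT1 replicate 1 (next 24.5 TPM), *hsp-16.48* at 264 TPM in the early library of CT1 replicate 1 (next 180.4 TPM), *lbp-8* at 8.39 TPM in the early library of CT1 replicate 2 (next 4.05 TPM), *lea-1* at 206 TPM in the early library of CT3 replicate 1 (next 157 TPM) and *lips-11* at 176 TPM in the late library of CT23 replicate 2 (next 139 TPM). The last were *sars-2* at 38.6 TPM in the early library of CT1 replicate 1 (next 34.5 TPM), *sqt-3* at 29.5 TPM in the late library of CT21 replicate 1 (next 17.2 TPM), *upp-1* at 149 TPM in the late library of CT19 replicate 2 (next 129 TPM), *vit-1* at 229.9 TPM in the late library of CT17 replicate 2 (next 163 TPM) and *warf-1* at 13.6 TPM in the early library of CT7 replicate 1 (next 8.66 TPM). Libraries that stood low were *hsp-17* at 107 TPM in the early library of CT7 replicate 2 (next 137 TPM), *kin-20* at 10.1 TPM in the late library of CT17 replicate 1 (next 11.9 TPM) and *ugt-9* at 3.14 TPM in the early library of CT3 replicate 1 (next 4.08 TPM). Among the high values, *F44E5.4*, *hsp-16.41* and *hsp-16.48* all peaked in CT1 replicate 1, and *sqt-3* and *dpy-2* in CT21 replicate 1.

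The late minus early change differed between K-NAA and mock worms, in limma's test of the difference, for *M02H5.8* (0.85), *M163.1* (0.47), *hsp-16.11* (1.49), *hsp-70* (1.003) and *tyms-1* (-0.31), each given as K-NAA minus mock. The call of *tyms-1* was lost after median ratio rescaling (adjusted p = 0.14). *hsp-70* averaged under 1 TPM over the 48 libraries.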

How the results depend on the processing

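The direction of the 101 called genes that fall under the naming rule held under each of the 39 alternatives, except that *hsp-70* was not tested with a filter at 1 TPM. These genes were chosen on the same libraries, which by itself makes a steady direction likely. Their calls held for 100 with a pseudocount of 0.1, for 92 with no filter, for 89 after median ratio rescaling, for 91 after quantile normalization and for 35 on means of the plates. Without 1 replicate or library the counts ranged from 0 to 410 higher and 0 to 247 lower. The means of both plates (4 against 4 time points) gave 66 higher and 43 lower. A fit of 24 mock libraries with 3 windows gave 310 lower, and a slope over all 24 gave 769 higher and 473 lower. Without a time point the counts were 101 and 56 (CT1), 152 and 92 (CT3), 152 and 90 (CT5), 200 higher (CT19), 183 and 104 (CT21), and 142 and 80 (CT23). In K-NAA, 24 higher and 28 lower became 50 and 42 with a filter at 1 TPM, 51 and 55 after median ratio rescaling, 40 and 57 after quantile normalization, 15 higher with no mean-variance trend, and 0 to 2 higher and 0 to 4 lower with 1 replicate left out. The 5 genes that differed between conditions became 2 with no mean-variance trend and 0 with either replicate left out. The cause of these shifts was not tested.

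With the replicate number as a block, 383 genes were higher and 240 lower in mock, and 47 and 43 in K-NAA. Whether plates of the same number belong together across time points was not settled. Over 28 pairs of time points the correlation of plate differences ran from -0.112 to 0.321 (median 0.054).

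Genes that did not pass changed sign near 0. Leaving out libraries or replicates gave -0.14 to 0.019 for *T14B1.1*, -0.0086 to 0.049 for *kin-20*, -0.0028 to 0.14 for *lin-42*, -0.14 to 0.12 for *nhr-23*, -0.025 to 0.073 for *noah-1* and -0.17 to 0.18 for *tim-1*. Other settings gave without CT23 0.013 for *T14B1.1*, 0.0025 for *inx-5* and -0.035 for *tim-1*, without CT1 -0.00054 for *kin-20* and -0.011 for *tim-1*, without CT19 -0.014 for *kin-20*, -0.011 for *noah-1* and -0.050 for *tim-1*, without CT7 -0.011 for *lin-42* and -0.0015 for *tim-1*, without CT21 -0.040 for *lin-42* and 0.019 for *nhr-23*, in CT1 to CT5 against CT19 to CT23 0.035 for *nhr-23* and -0.054 for *noah-1*, without CT17 0.024 for *nhr-23* and -0.043 for *noah-1*, without CT3 -0.043 for *noah-1*, with median ratio rescaling -0.012 for *tim-1*, with quantile normalization -0.029 for *tim-1*.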
